A study of Homo sapiens with 4 samples.

Results

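Forkhead genes outside the FOXA group were examined for chromatin accessibility in pancreatic progenitors treated with I-BET151 or DMSO. The members are the protein-coding genes of GENCODE release 44 whose symbol is FOX, a letter from B to S and a number, with an optional suffix letter or L1. This gave 44 genes of 20007 protein-coding genes. The cells were derived from MEL1, an established human embryonic stem cell (hESC) line that the study's methods give as MEL1 INS GFP/W, with GFP at 1 copy of INS, and the labels call them hPSC-derived pancreatic progenitor cells. Both groups were cultured in EF6 basal medium, which is DMEM with B27, EGF at 50 ng/ml, bFGF at 10 ng/ml and the TGFβ inhibitor 616452 at 10 μM. The DMSO group received DMSO, and the I-BET151 group received 1 μM I-BET151 for 7 days. Each group had 2 ATAC-seq libraries of 50000 cells, all from 1 cell line. The labels do not say that the replicates came from separate cultures, so any p-value measures only the spread between these libraries, which may be technical.

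Forkhead proteins bind DNA through a winged-helix domain that recognizes a core of the form TGTTTAC. FOXA proteins open compacted chromatin during endoderm and pancreas development, and the other subfamilies serve many roles. FOXO proteins are held out of the nucleus by insulin and AKT signaling, FOXM1 drives genes of the G2 and M phases, FOXK proteins act in metabolism, and FOXP proteins are mostly repressors. Many of the remaining genes specify tissues other than the pancreas, such as FOXJ1 in motile ciliated cells and FOXN1 in thymic epithelium. I-BET151 blocks the bromodomains of the BET proteins, which read acetylated histones. In ATAC-seq, Tn5 transposase cuts accessible DNA, and reads pile up over open regions.

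The sequences below are those of the regions on which the results turn. All were read from hg38 on the plus strand, 5′ to 3′. Those of 201 bp are centred on the summit of the strongest peak and those of 81 bp on the forkhead core. The first 5 regions were called in all 4 libraries and changed rank with I-BET151. In the FOXO6 region capitals mark a CCAAT box (CCAAT or ATTGG) and GC boxes (GGGCGG or CCGCCC). In the FOXK2 region they mark instead a word of 20 bases that recurs in tandem. The windows of FOXN1, FOXP1 and FOXP2 held no match to the motifs searched.
FOXO6 upstream region (chr1:41361094-41361294): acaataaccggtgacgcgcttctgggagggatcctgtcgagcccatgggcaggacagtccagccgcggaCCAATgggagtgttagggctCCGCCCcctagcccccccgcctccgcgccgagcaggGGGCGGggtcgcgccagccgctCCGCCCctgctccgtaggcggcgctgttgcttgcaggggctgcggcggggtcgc
FOXN1 intron 3 region (chr17:28525248-28525448): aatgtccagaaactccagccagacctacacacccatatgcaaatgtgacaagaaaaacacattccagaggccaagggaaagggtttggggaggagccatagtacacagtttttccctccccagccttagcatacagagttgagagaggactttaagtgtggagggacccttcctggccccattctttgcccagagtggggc
FOXP1 intron 5 region (chr3:71245996-71246196): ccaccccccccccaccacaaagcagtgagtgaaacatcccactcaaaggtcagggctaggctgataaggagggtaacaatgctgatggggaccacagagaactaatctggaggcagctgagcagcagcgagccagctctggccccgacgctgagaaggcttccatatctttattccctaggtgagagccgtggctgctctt
FOXP2 intron 9 region (chr7:114653482-114653682): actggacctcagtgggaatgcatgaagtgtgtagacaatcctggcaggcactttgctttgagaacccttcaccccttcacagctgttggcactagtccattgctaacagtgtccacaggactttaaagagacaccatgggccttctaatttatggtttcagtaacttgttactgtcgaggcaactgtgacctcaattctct
FOXK2 intron 7 region (chr17:82586296-82586496): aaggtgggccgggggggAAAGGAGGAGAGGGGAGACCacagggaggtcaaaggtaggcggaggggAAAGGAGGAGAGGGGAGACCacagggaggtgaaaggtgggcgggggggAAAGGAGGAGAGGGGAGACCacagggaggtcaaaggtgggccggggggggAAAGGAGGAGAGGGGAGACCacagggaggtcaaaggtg

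The next sequence belongs to a region called in both I-BET151 libraries and in no DMSO library, here termed gained. It is the gained FOXP2 region with the highest fold enrichment. It lies before the start of the canonical transcript but within the annotated gene. Capitals mark a CCAAT box.
FOXP2 region before the start (chr7:114405576-114405776): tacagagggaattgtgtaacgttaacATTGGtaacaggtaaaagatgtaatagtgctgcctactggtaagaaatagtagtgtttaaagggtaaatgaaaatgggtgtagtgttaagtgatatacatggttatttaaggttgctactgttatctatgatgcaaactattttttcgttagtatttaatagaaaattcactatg

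The last sequences are the windows around the forkhead core TGTTTAC, or its complement GTAAACA, in the gained regions that held it. Capitals mark the core. The FOXP2 distal upstream region is upstream of the canonical transcript. Its full region (chr7:114085490-114086396) spans the start of the annotated gene at 114086327.
FOXP2 distal upstream region (chr7:114085839-114085919): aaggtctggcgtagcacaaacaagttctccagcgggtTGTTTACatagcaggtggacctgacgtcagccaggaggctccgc
FOXP2 first intron 2 region (chr7:114428404-114428484): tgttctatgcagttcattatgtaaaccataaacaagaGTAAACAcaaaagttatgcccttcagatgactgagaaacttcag
FOXP2 second intron 2 region (chr7:114530097-114530177): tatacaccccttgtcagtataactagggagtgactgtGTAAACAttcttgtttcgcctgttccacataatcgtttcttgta
FOXP1 intron 7 region (chr3:71086963-71087043): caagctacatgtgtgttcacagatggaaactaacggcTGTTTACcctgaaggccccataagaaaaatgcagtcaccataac

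The authors called peaks with MACS2 in each library on its own. The 4 lists held between 38295 and 111324 peaks, and the depth inferred from their background was 38.7 and 36.6 M reads in DMSO 1 and 2 against 12.5 and 16.0 M in I-BET151 1 and 2. The DMSO 2 list was the shortest and the I-BET151 2 list the longest. Pileup, the number of reads at a peak's summit, was solved from the deposited fold enrichment and p-value. The smallest pileup called at a forkhead locus was 11 reads in each DMSO library and 5 and 6 with I-BET151. Per M reads these are 0.284 and 0.301 for DMSO and 0.401 and 0.375 for I-BET151. A region missing from a list was below that list's own threshold and was not shown to be closed. Of the markers of pancreatic progenitors, SOX9 and NKX6-1 had a promoter peak in all 4 libraries, PDX1 in the I-BET151 libraries alone and PTF1A in none. Of 12 markers of other cell types, COL1A1 and TWIST1 of mesenchyme and CDX2 of intestine had a promoter peak in all 4 libraries. The promoters of INS, NEUROG3, ALB, AFP, POU5F1, NANOG and PTPRC had none in any library. Of the endocrine markers, CHGA had a promoter peak in DMSO 1 and both I-BET151 libraries (25, 13 and 24 reads) and NEUROD1 in I-BET151 1 alone (13 reads).

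The first question was which forkhead loci carried accessible regions and which of them appeared or disappeared with I-BET151. A locus was the gene with 10 kb on either side. Peaks of the 4 lists were merged into 164301 regions, and 323 of these lay at 39 of the 44 loci. FOXD4, FOXD4L1, FOXE1, FOXO3B and FOXR2 had no region. FOXD4, FOXD4L1 and FOXO3B have near-identical copies elsewhere in the genome, where reads can be split or removed by filters on mapping. Whether this bears on their lack of regions was not tested. The nearest transcription start site (TSS) was that of a member for 284 of the regions and that of another gene for 39. At the forkhead loci 147 and 73 regions were called in the DMSO libraries, and 155 and 243 in the I-BET151 libraries.

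Of the 323 regions, 62 (19.2%) were gained. Over all 102534 regions within 10 kb of a protein-coding gene the gained share was 16.3%. In the opposite direction 7 regions (2.17%) were called in both DMSO libraries and no I-BET151 library, here termed lost, against 2.29% of all regions. Both shares were close to those of all genes. Gained regions lay at 24 of the 39 loci with a region, and 50.6% of all genes with a region had at least 1. Lost regions lay at FOXN3, FOXP1 and FOXK2, and 13.5% of all genes had a lost region. Regions called in all 4 libraries numbered 45, or 13.9% against 18.8% near all genes, and 152 regions were called in a single library.

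These counts depended on the libraries compared. The replicate 1 libraries alone gave 90 gained and 82 lost regions, and the replicate 2 libraries alone gave 181 and 11. The shares near all genes moved too. They were 26.5% gained and 26.2% lost for replicate 1, and 47.3% gained and 3.53% lost for replicate 2. Without I-BET151 replicate 1 the gained regions numbered 142, and 38% of regions near all genes were gained. Without DMSO replicate 2 the lost regions numbered 52, and 19.8% of regions near all genes were lost. The swings in these counts were therefore not particular to forkhead loci. When the same number of peaks was taken from each list, 12 regions of 131 were gained and 5 lost. The gained share was then 9.16% at forkhead loci and 8.62% near all genes.

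**Figure D1:**
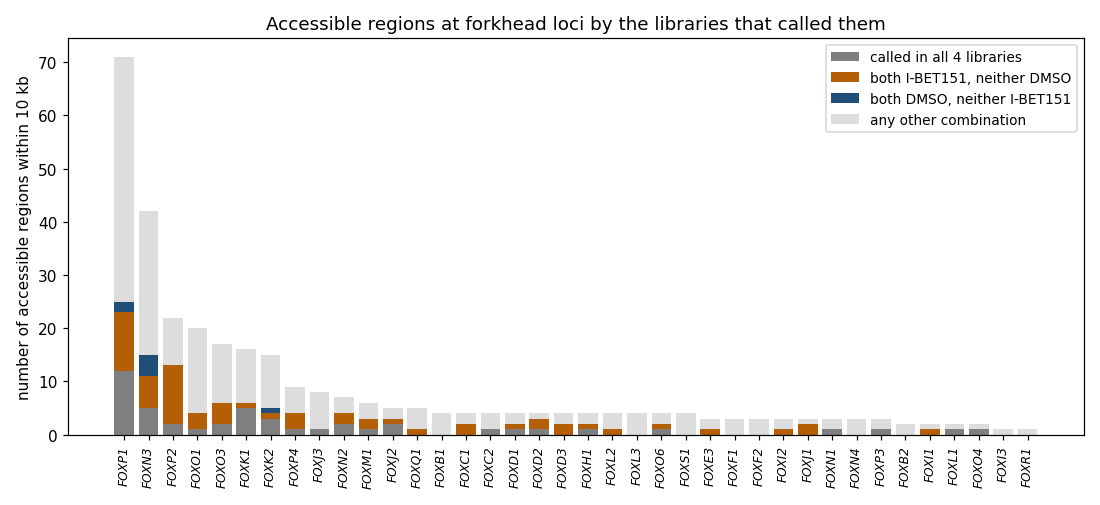
Stacked bars give the number of merged accessible regions within 10 kb of each of 38 forkhead genes, colored by the libraries that called them. FOXP1, FOXN3 and FOXP2 held 135 regions, and gained regions (orange) made up 11 of the 22 regions of FOXP2.

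The FOXP genes, whose products control immune, neural and lung development, held 105 of the 323 regions and 25 of the 62 gained regions. FOXP2, known for its part in speech and in the developing brain, had the highest gained share among members with at least 10 regions. At FOXP2 (chr7:114086327-114693772, plus strand) 11 of 22 regions were gained and 0 lost. Of the 1079 protein-coding genes with at least 20 regions, FOXP2 was the only gene whose gained share reached 50%, and the median of these genes was 18.2%. FOXP2 was singled out after its values were seen. The number of regions called at FOXP2 was 6 and 4 in the DMSO libraries and 16 and 21 in the I-BET151 libraries. These counts include the 11 gained regions and are no separate result. The promoter of FOXP2 was called in DMSO 1 and I-BET151 2 alone, so its calls did not differ by group. With equal numbers of peaks per list, 2 of its 12 regions were gained.

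The strongest gained FOXP2 region (chr7:114405444-114405866) lay 9139 bp before the TSS of the canonical transcript, within the annotated gene. Its pileup was 25 and 52 reads in the I-BET151 libraries, and its fold enrichment lay at percentiles 92.5 and 97.1 of those lists. Neither DMSO library called it. The region at chr7:114154040-114154523, 260 kb before that TSS and within a longer FOXP2 transcript, had 12 and 19 reads. Another, in intron 3 (chr7:114539688-114540014), had 14 and 15 reads. The gained regions reached from 332 kb before to 125 kb after the TSS. The 2 FOXP2 regions called in all 4 libraries lay farther into the gene, in introns 6 and 9.

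FOXP1, a regulator of lymphocyte and lung development, had 71 regions, the most of any member. Of these 11 (15.5%) were gained and 2 lost. Its gained region with the highest pileup, in intron 5 (chr3:71247680-71248070), had 35 and 42 reads with I-BET151. A region over the start of the canonical transcript (chr3:71583061-71584886) was also gained, with 21 and 32 reads. The gained regions in introns 3 and 2 (chr3:71428750-71429298 and chr3:71497407-71497979) had 14 and 24 reads and 14 and 22 reads. The lost FOXP1 regions lay in introns 3 and 11, with 14 and 13 reads and 18 and 14 reads in the DMSO libraries. With equal numbers of peaks FOXP1 had 1 gained and 4 lost regions, so the balance at this gene turned when lists of equal length were compared.

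FOXP4, expressed in lung and gut epithelium, had 3 gained regions among 9. Those in intron 2 (chr6:41568740-41569297) and downstream (chr6:41602873-41603471) had 14 and 38 reads and 23 and 26 reads, and the upstream region had 7 and 9 reads. The TSS nearest to the downstream region was that of MDFI. FOXP3, the factor of regulatory T cells, had 3 regions and none was gained. Its only region in more than 1 list lay 4709 bp upstream, nearest to PPP1R3F, with 51, 65, 86 and 179 reads in DMSO 1, DMSO 2, I-BET151 1 and I-BET151 2. The other FOXP3 regions were called in DMSO 1 alone.

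**Figure D2:**
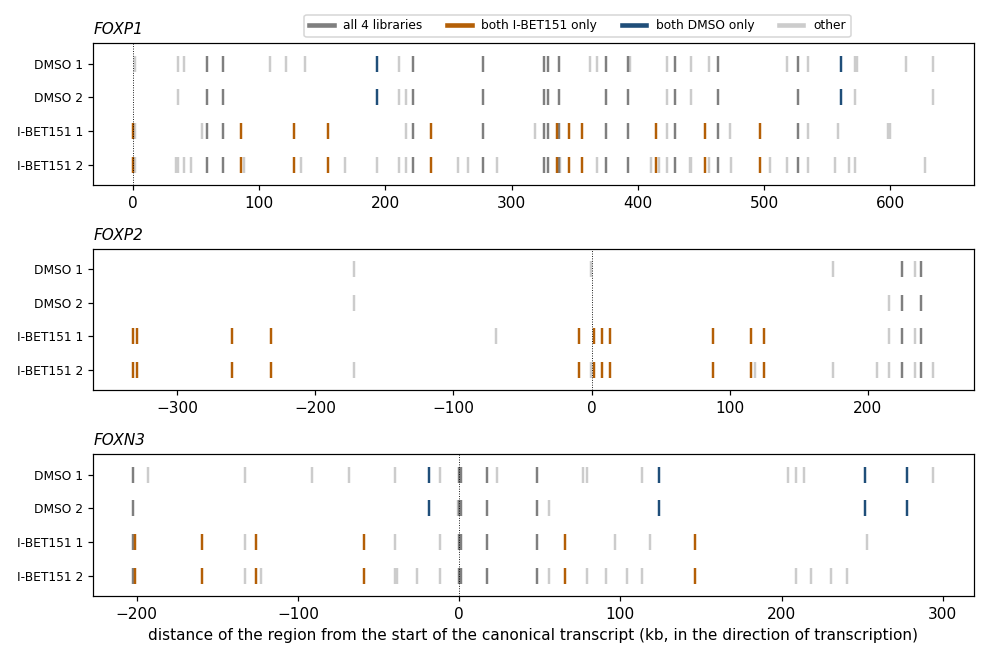
Ticks mark the accessible regions of FOXP1, FOXP2 and FOXN3 in each library by their distance in kb from the start of the canonical transcript (dotted line). The 11 gained regions of FOXP2 (orange), which by definition have no DMSO tick, lie between -332 and 125 kb. Those of FOXP1 and FOXN3 are interspersed with regions called in all 4 libraries (gray).

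FOXN3, a repressor with a role in the cell cycle checkpoint, had 42 regions, of which 6 (14.3%) were gained and 4 lost. Its strongest gained region, in intron 2 (chr14:89351437-89352282), had 26 and 31 reads and lay at percentiles 90.3 and 81.1. The next, in parts of the gene outside the canonical transcript (chr14:89576300-89577263 and chr14:89543305-89543801), had 12 and 19 reads and 10 and 16 reads. The 4 lost FOXN3 regions had between 13 and 17 reads in DMSO 1 and between 11 and 15 reads in DMSO 2. FOXN3 held 4 of the 7 lost regions of the whole family. With equal numbers of peaks per list, FOXN3 had 16 regions, of which 1 was gained and 0 lost. FOXN2 had 2 gained regions in introns 3 and 5, with 10 and 12 reads and 10 and 13 reads. FOXN1 and FOXN4, the latter a factor of the retina, had none.

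FOXO and FOXM1 genes link insulin signaling and the cell cycle to transcription. Of 43 FOXO regions 8 were gained and 0 lost. FOXO1, a regulator of insulin responses in beta cells and liver, had 3 gained regions in its first intron, with pileups of 14 and 21, 13 and 16, and 19 and 33 reads. FOXO3 had 4, of which the region before its start (chr6:108560657-108561051) had 20 and 41 reads, the intron 1 regions 16 and 17, 9 and 12, and 8 and 9 reads. The region before the FOXO3 start had a low fold enrichment, 2.87 in the lower of the I-BET151 libraries. The FOXO3 promoter was called in all 4 libraries through another peak. FOXO6 had 1 gained region downstream (chr1:41387602-41388108) with 17 and 20 reads, and FOXO4 had none. Both gained regions of FOXM1 were nearest to other genes, TEX52 with 17 and 31 reads and TULP3 with 9 and 22 reads. Only the FOXK, FOXN, FOXO and FOXP subfamilies had over 20 regions. Among these the FOXK genes had the lowest gained share, 2 of 31 (6.45%), which is a small count. The FOXB, FOXF, FOXR and FOXS genes had fewer regions and none gained. The gained FOXK1 and FOXK2 regions lay in intron 1 of each gene, with 16 and 20 reads and 11 and 11 reads. The lost FOXK2 region, downstream of the gene (chr17:82649045-82650033), had 21 and 21 reads.

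Among the genes that specify tissues, the 5 FOXD genes had 5 gained regions of 12. FOXD2 had 2, upstream with 30 and 41 reads and downstream with 12 and 17 reads. FOXD3, a factor of neural crest and pluripotent cells, had 2, at its start with 11 and 15 reads and downstream with 11 and 17 reads. FOXD1, of the kidney stroma, had 1 upstream with 11 and 20 reads. FOXC1, of eye and mesoderm development, had 2 gained regions (chr6:1604176-1604793 and chr6:1616570-1617108) with 25 and 31 reads and 14 and 17 reads. FOXJ1 had 2 of 3, described with its promoter, and FOXJ2 had 1 in intron 1 with 11 and 24 reads. FOXL2, of the ovary, had a strong gained region 10762 bp after its start (chr3:138935858-138936652) with 31 and 45 reads at percentiles 80.2 and 72.0.

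FOXI1, of inner ear and kidney ion-transporting cells, had a gained region upstream (chr5:170100449-170100798) with 14 and 22 reads, and FOXI2 had 1 with 9 and 7 reads. FOXE3, of the lens, had 1 upstream with 14 and 28 reads, and FOXQ1 1 in its coding exon with 14 and 29 reads. The gained region of FOXH1, the SMAD partner in nodal signaling, had 25 and 30 reads and was nearest to PPP1R16A. FOXB1, FOXB2, FOXF1, FOXF2, FOXI3, FOXJ3, FOXL1, FOXL3, FOXR1 and FOXS1 had neither a gained nor a lost region. The same held for FOXC2, a factor of lymphatic vessel development.

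Several of these genes are neighbors. FOXQ1, FOXF2 and FOXC1 lie within 302 kb on chromosome 6 and had 12 regions, of which 3 and 0 were called in the DMSO libraries and 4 and 10 in the I-BET151 libraries. None of the 12 was called in all 4. FOXF1, FOXC2 and FOXL1 lie within 73 kb on chromosome 16 and had 7 regions, of which 5 and 1 were called with DMSO and 2 and 4 with I-BET151. There the groups overlapped and 0 regions were gained. FOXE3 and FOXD2, within 24.4 kb on chromosome 1, had 7 regions, of which 2 and 1 were called with DMSO and 4 and 6 with I-BET151. Over all 323 forkhead regions the calls numbered 147 and 73 with DMSO and 155 and 243 with I-BET151. Whether the clusters differ from that pattern was not tested.

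The second question was which forkhead promoters were accessible. A promoter was called where a peak lay within 1 kb of the TSS of the canonical transcript. Of the 44 genes, 15 and 14 had a promoter peak in the DMSO libraries and 20 and 23 in the I-BET151 libraries. Over all protein-coding genes the shares were 61.2 and 56.1% with DMSO and 66.6 and 70.4% with I-BET151. The forkhead shares were 34.1 and 31.8%, and 45.5 and 52.3%. The difference was not tested. In all 4 libraries 11 promoters were called, against 53.6% of all genes, and 19 were called in none. All 11 belong to the FOXD, FOXJ, FOXK, FOXM, FOXN and FOXO subfamilies.

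FOXN2 had the highest promoter pileup, with 73 and 104 reads under DMSO against 100 and 212 under I-BET151. FOXO6, a FOXO member of the brain, had 48, 43, 63 and 135 reads in the same order, and FOXD2 had 39, 49, 57 and 125 reads. FOXO1 had 18 and 19 reads under DMSO against 33 and 61 under I-BET151, and FOXO3 30 and 30 against 30 and 56. The promoters of FOXJ2 and FOXJ3 had 27 and 26 against 32 and 68 reads, and 30 and 21 against 28 and 50 reads. FOXM1, whose promoter region was nearest to the TSS of RHNO1, had 29, 29, 17 and 37 reads. FOXK2 had 29, 20, 23 and 32 reads in the same order. FOXK1 had 20, 19, 10 and 15 reads at a peak 920 bp after its start. A separate peak 46 bp before the FOXK1 start had 18 reads and was called in I-BET151 2 alone. These counts are raw and the I-BET151 libraries were the shallower ones. Over all regions called in all 4 libraries, pileup per M reads was higher with I-BET151 by a median log2 of 1.901. The promoter counts were not corrected for that shift.

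In 3 genes the promoter was called in both I-BET151 libraries and neither DMSO library, against 7.08% of all genes. These were FOXJ1, FOXD3 and FOXP1. FOXJ1, the master regulator of motile cilia, had its promoter peak with 23 and 37 reads. A gained region in its intron 2 (chr17:76138362-76138943) had 21 and 35 reads, and the third region, downstream, had 22 reads in DMSO 1, no call in DMSO 2, and 15 and 36 reads after I-BET151 treatment. The reverse, a promoter called with DMSO alone in both libraries, was seen in 0 members and in 0.395% of all genes. A further 11 promoters were called in another combination. FOXD1, FOXO4 and FOXP4 lacked a call in DMSO 1 alone. FOXD1 had 18 reads in DMSO 2 and 31 and 42 with I-BET151, FOXO4 had 16 against 27 and 40, and FOXP4 had 29 against 35 and 55. FOXC1 lacked a call in DMSO 2 alone, with 32 reads in DMSO 1 and 21 and 38 with I-BET151.

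To set the loci on a common scale, a locus score was computed as the mean percentile of a gene's regions by fold enrichment within a list, a region without a call counting as 0. The mean over the 39 genes was 14.8 and 7.15 in the DMSO libraries and 24.4 and 31.7 in the I-BET151 libraries. The group means were 10.98 ± 5.42 and 28.0 ± 5.11 (SD, n = 2 each), a difference of 17.1, and the groups did not overlap. The median difference per gene was 15.6, against 10.7 over all 18497 genes with a region. The score was higher with I-BET151 in 35 of the 39 forkhead genes and in 81.6% of all genes. Both I-BET151 libraries lay above both DMSO libraries at 24 forkhead genes, and 50.7% of all genes did the same. With 2 libraries against 2, the smallest p of an exact permutation test is 0.33. With equal numbers of peaks the mean difference was 7.36, and within the replicate pairs it was 9.61 and 24.5.

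FOXJ1 had the largest difference, 58.9, from 1.00 and 0 in the DMSO libraries to 57.1 and 61.6 in the I-BET151 libraries, at the 99.0 percentile of all genes. FOXO4, a FOXO member on the X chromosome, was at 5.58 and 29.0 with DMSO and 73.1 and 60.7 with I-BET151. FOXB2 was at 5.62 and 0 against 34.0 and 62.6, from 2 regions that lay more than 7 kb upstream. FOXI1 was at 0 in both DMSO libraries against 40.4 and 33.9. FOXP4 was at 5.99 and 5.91 against 36.0 and 49.6. In each of these 5 genes both I-BET151 libraries lay above both DMSO libraries, as at 50.7% of all genes. The 5 genes were picked for the largest rises of this score, so this is no separate result. The differences were above 0 in every alternative that gave a value (loci of 3 kb gave none for FOXB2 and FOXI1), although with equal numbers of peaks they were 13.1 at FOXJ1, 11.1 at FOXO4, 15.2 at FOXB2, 11.5 at FOXI1 and 16.7 at FOXP4.

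FOXR1, FOXB1 and FOXP3 were among the 4 genes with a lower score with I-BET151. FOXR1 was at 32.4 and 0 in the DMSO libraries and at 0 and 8.25 in the I-BET151 libraries, from 1 region. FOXB1, a factor of the developing hypothalamus, was at 16.5 and 0 against 0 and 5.42. In both genes the groups overlapped and DMSO 1 alone carried the DMSO value. FOXP3 was at 50.8 and 31.7 against 31.6 and 31.5, so that both I-BET151 libraries lay below both DMSO libraries, by 0.091 in the closest case. It was the only such member, and 3.72% of all genes lay the same way. The sign of each of these differences turned under at least 2 alternatives.

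**Figure D3:**
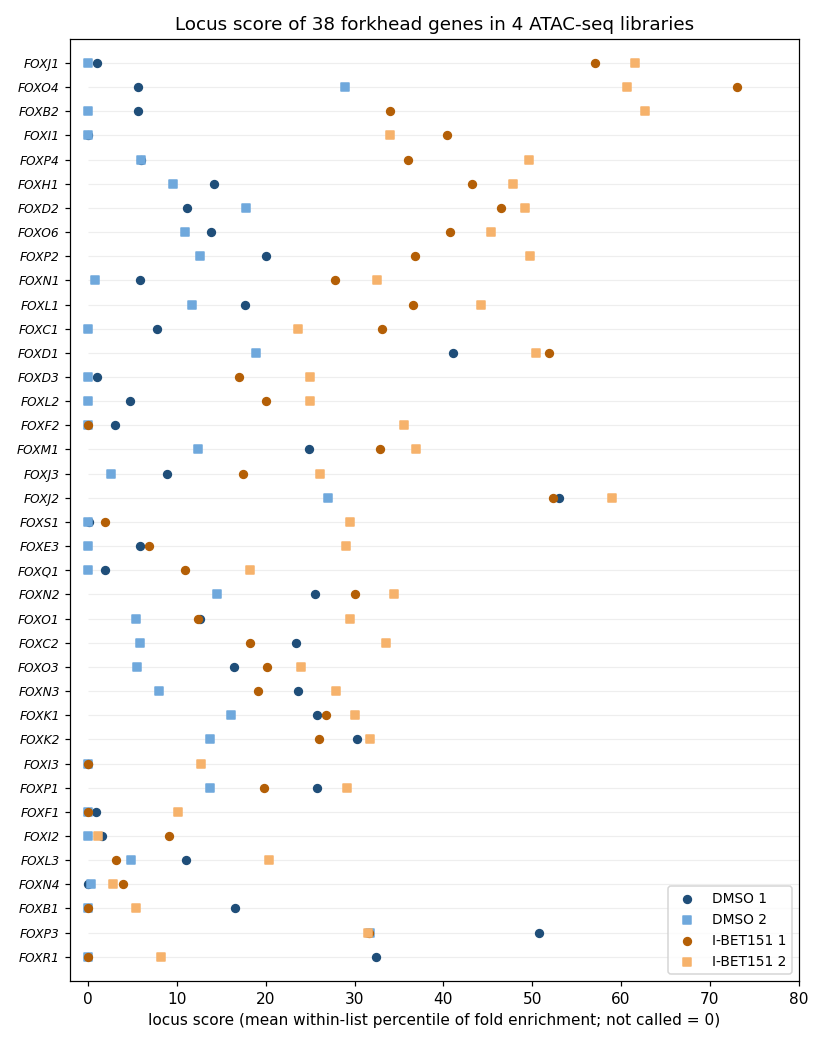
Points give the locus score (mean within-list percentile of fold enrichment, 0 where not called) of 38 forkhead genes in the 2 DMSO libraries (blue) and the 2 I-BET151 libraries (orange), ordered by the difference between the groups. FOXJ1 at the top goes from at most 1.00 to at least 57.1, and FOXR1, FOXP3 and FOXB1 at the bottom are genes with a lower mean with I-BET151.

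The third question was whether regions called in all 4 libraries changed their place within the lists. Ranks by fold enrichment were turned into normal scores and compared with limma over all 25627 such regions, with Benjamini-Hochberg adjustment over all of them. Of the 45 forkhead regions, 2 rose in rank with I-BET151 at an adjusted p under 0.05 and 3 fell. Over all regions 3.41% rose and 1.96% fell. At an unadjusted p under 0.05 there were 15 of the 45, against 24.9% of all regions. The median change of the 45 was -0.115 on the normal score scale, with 22 higher and 23 lower. On the scale of pileup per M reads, all regions shifted by a median log2 of 1.901 and the forkhead regions by 1.86. Changes on that scale are therefore also given after centring each library on its median region.

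The FOXN1 region in intron 3 (chr17:28524997-28525573) had 31 and 25 reads under DMSO against 23 and 61 under I-BET151. Its percentile was 17.6 and 2.15 with DMSO and 67.1 and 90.7 with I-BET151, a rise in rank of 2.02 ± 0.43 (SE, limma adjusted p = 0.0189). Per M reads, after centring, the change was -0.09 (limma adjusted p = 0.834). The FOXO6 region upstream of the gene (chr1:41360870-41361557), within its promoter, went from percentiles 55.2 and 43.4 to 91.6 and 96.4. Its rank rose by 1.57 ± 0.38 (SE, limma adjusted p = 0.0294), and its centred pileup per M reads changed by 0.51 (limma adjusted p = 0.149). In both regions the percentiles of the groups did not overlap. The limma adjusted p was 0.128 for FOXN1 and 0.124 for FOXO6 without DMSO 2, and 0.247 for FOXO6 without DMSO 1.

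The FOXP1 region in intron 5 (chr3:71245991-71246841) had 30 and 23 reads under DMSO against 14 and 23 under I-BET151, and percentiles of 61.9 and 32.4 against 1.89 and 10.6. Its rank fell by 1.87 (SE 0.38, limma adjusted p = 0.0157), and its centred pileup per M reads fell by 1.06 on the log2 scale (limma adjusted p = 0.037). The gained FOXP1 region with 35 and 42 reads lay within 1 kb of it. The FOXP2 region in intron 9 (chr7:114653283-114654036) had 43 and 44 reads under DMSO against 28 and 97 under I-BET151. Its percentiles were 98.0 and 93.3 against 64.1 and 88.3, and its rank fell by 1.57 (SE 0.40, limma adjusted p = 0.0374). Its centred pileup per M reads changed by -0.25 (limma adjusted p = 0.574). Without DMSO 1 the limma adjusted p was 0.133 for FOXP1 and 0.26 for FOXP2. For FOXP2 it was 0.114 without DMSO 2 and 0.0902 without I-BET151 1.

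The FOXK2 region in intron 7 (chr17:82586079-82586635) stood apart. It had 109 and 258 reads under DMSO against 25 and 34 under I-BET151, so the raw groups did not overlap. Per M reads the values were 2.82 and 7.05 against 2.01 and 2.13. The rank fell by 2.75 (SE 0.38, limma adjusted p = 0.00312), and the pileup per M reads fell by 1.11 on the log2 scale (limma adjusted p = 0.0135). After centring it fell by 3.04 (limma adjusted p = 0.0226). Before centring it was the only one of the 45 forkhead regions whose pileup per M reads was lower with I-BET151, and 0.41% of all 25627 regions were. The region is a tandem repeat, in which a word of 20 bases (capitals in the sequence above) recurs 7 times. A word of that length recurred at least 3 times in 1.14% of all regions called in all 4 libraries. It did so in 11.7% of the regions that fell in rank, 0.571% of those that rose and 85.7% of the 105 with a lower pileup per M reads. The part of the repeat in the FOXK2 value was not tested. The other 4 regions held no word of 20 bases more than once.

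**Figure D4:**
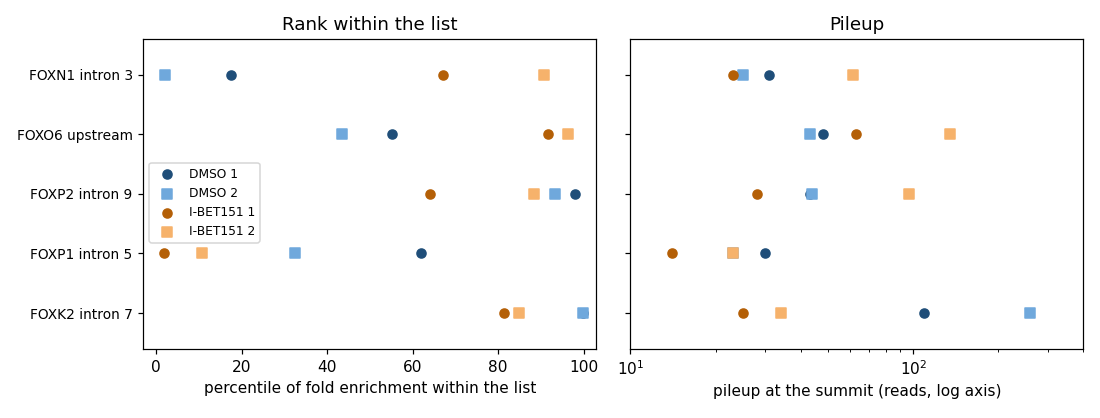
Points give, for the 5 forkhead regions that passed limma's threshold, the percentile of fold enrichment within each list (left) and the pileup in reads on a log axis (right). FOXN1 and FOXO6 lie farther right with I-BET151 (orange) than with DMSO (blue) in percentile, and at FOXK2 the DMSO libraries reach 109 and 258 reads against 25 and 34.

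Motifs were counted on both strands within 100 bp of the strongest summit of each region, a window of 201 bp. The forkhead core was found in 19 of the 323 regions (5.88%) and in 4.57% of all 164301 regions. Among gained regions it was found in 4 of the 62 at forkhead loci (6.45%) and in 5.03% near all genes. Of these 4, 3 were at FOXP2, with 16 and 23, 11 and 10, and 13 and 17 reads with I-BET151. The other, in intron 7 of FOXP1, had 9 and 15 reads. The region over the start of FOXO4 also held the core. GC boxes were found in 22.3% of the forkhead regions and in 14.1% of those near all genes. In the gained regions the shares were 21.0% at forkhead loci and 12.2% near all genes. The gained forkhead regions had a median GC content of 50.0%, against 46.8% near all genes. The CCAAT box was found in 23.5% of the forkhead regions and in 23.9% near all genes. The CTCF motif, searched for by name, was found in 1 of the 62 gained forkhead regions (1.61%), at FOXL2, and in 7.22% of gained regions near all genes.

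The genes around the FOXO and FOXM1 proteins were read from a list of 24 inputs and targets. It held 200 regions, of which 38 (19.0%) were gained and 6 lost, against 16.3% and 2.29% near all genes. IGF1R, a receptor upstream of AKT, had 9 gained regions of 33, and BCL2L11, a target of FOXO3 that promotes apoptosis, had 4 of 8. All 24 promoters were called in both I-BET151 libraries and 20 in each DMSO library, where the shares over all genes were 66.6 and 70.4%, and 61.2 and 56.1%. Of the list's 51 regions called in all 4 libraries, 1 rose in rank past limma's threshold and 1 fell. The first was at PLK1, a mitotic kinase, and the second at CCNG2, a target of FOXO proteins. Over all such regions 3.41% rose and 1.96% fell. The excluded FOXA genes, which mark endoderm, had 12 regions and promoter peaks in all 4 libraries at all 3 genes. All 4 of their gained regions lay at FOXA3.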

How the data were processed

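ATAC-seq peaks of 4 libraries were analysed (2 per group, grouped by the labels). Per the labels and the study's methods, the authors mapped reads to hg38 (Bowtie2 v2.2.5) and ran MACS2 v2.1.2 on each library. Each deposited list gives a score (not used), the fold enrichment, a ratio of pileup to background, and −log10 of p and q. The weakest peaks have a q-value of 0.05, whereas the methods state a threshold of 1e-05 for p. The shortest peak was 200, 233, 200 and 256 bp in DMSO 1, DMSO 2, I-BET151 1 and I-BET151 2, so read extension differed between libraries. Counts carry Poisson error beyond the SD of 2 libraries.

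Peaks of chromosomes 1 to 22, X and Y that overlapped were merged (minimum 1 bp) and assigned to genes within 10 kb. Pileup was solved as whole reads (within 0.001 of −log10 p) in 100% of peaks, and depth was taken from the background with MACS2's default genome size. Analyses used Python 3.11.15, numpy 2.4.6, scipy 1.17.1, pandas 2.3.3 and limma 3.58.1 (R 4.3.3), and were tested on simulated data. Members, lists and tests were chosen with earlier results of these data known, and the repeat count was added after the values were seen. Named were called promoters, gained and lost regions (up to 3 per gene, a few more in FOXO3 and FOXP1), regions past limma's threshold, and the 5 largest rises and falls of locus score, of which only 4 were below 0. Deviations of same-numbered libraries had a correlation of -0.14. Alternatives were the threshold, equal peak numbers, locus size, overlap, ranking, scaling, promoter distance, the replicate block and leaving out each library. The study's other assays were not used here, and a few items are not reported here.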

Additional observations from a re-analysis of the deposited data

How the results depend on the processing

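Of 45 regions called in all libraries, 2 rose and 3 fell in rank. Ranking by −log10 p gave 0 and 1, pileup per M reads 41 and 1, the same centred on each library's median 0 (up), and −log10 p of at least 10 gave 1 (up). On pileup per M reads, where 24614 of all 25627 regions rose, the FOXP1 and FOXP2 regions were at 0.86 and 1.67. Centred, they were at -1.06 and -0.25, and FOXN1 was at -0.0861. Leaving out a library gave 0 to 3 up and 1 to 5 down. FOXO6 and FOXP2 lost the call without either DMSO library (0.247 and 0.124, 0.26 and 0.114, limma adjusted p), FOXP1 without DMSO 1 (0.133), FOXN1 without DMSO 2 (0.128) and FOXP2 without I-BET151 1 (0.0902). By −log10 p ranks and in each of these, FOXK2 kept its call.

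Lost regions numbered 4 at −log10 p of at least 5, 0 at 10 and 13 in loci of 50 kb. Gained regions numbered 100 in loci of 50 kb and 12 with equal numbers of peaks, where the mean locus score differed by 7.36 and 1 promoter was gained. At −log10 p of at least 10, 8 promoters were gained and 5 called throughout. Leaving out each library gave 67 to 142 gained and 7 to 52 lost regions, 4 to 6 gained promoters and 11 to 14 called in all, and a mean score difference of 13.2 to 20.9. An overlap of 50% of the shorter interval was met by every peak and 50% of the region was used instead (61 gained, 7 lost).

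With the replicate block limma gave 2 up and 3 down. Pairs 1 and 2 gave 90 and 181 gained, 82 and 11 lost regions, and score differences of 9.61 and 24.5. Near all genes pairs 1 and 2 gave 26.5 and 47.3% gained, and 26.2 and 3.53% lost. With the numbers crossed, a choice made after seeing the data, limma gave 3 up and 5 down. The cause of these changes was not tested. At 2 libraries per group and 12.5 to 38.7 M reads, regions of under about 11 reads in DMSO could not be called.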

Other observations

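The 7 forkhead genes longer than 100 kb (FOXJ3, FOXK2, FOXN3, FOXO1, FOXO3, FOXP1 and FOXP2) held 195 of the 323 regions. Of these, 36 (18.5%) were gained and all 7 lost regions lay there. At the 3665 protein-coding genes of that length the gained share was 18.0%. The shorter forkhead genes had 128 regions, of which 26 (20.3%) were gained. In the gained forkhead regions the pileup ranged from 7 to 35 reads, with a median of 14, in I-BET151 1, and from 7 to 52 reads, with a median of 20, in I-BET151 2. The lower of both percentiles had a median of 32.9 in gained forkhead regions and 35.8 in gained regions near all genes. Per M reads, the weakest gained forkhead regions had 0.562 and 0.438 reads. The weakest calls of the DMSO libraries at these loci had 0.284 and 0.301. On this scale the regions called in all 4 libraries shifted up by a median log2 of 1.901 with I-BET151. These values therefore cannot tell a gain at a region from that common shift.

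Of the 323 forkhead regions, 24.8% were called in I-BET151 2 alone and 13.9% in DMSO 1 alone, against 21.6 and 17.5% near all genes. The shares for I-BET151 1 alone and DMSO 2 alone were 7.12 and 1.24%.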
